A study of Rattus norvegicus with 6 samples.

Results

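MiRNAs typical of muscle, liver and gut were examined in small RNA libraries of PC12 cells, a rat line from an adrenal pheochromocytoma, a tumour of the chromaffin cells that make catecholamines. The rows were chosen by name, as every arm of miR-1, miR-133a, miR-133b, miR-206, miR-499, miR-122, miR-143, miR-145, miR-192 and miR-194, because these serve as markers of other tissues. The rule found 14 of the 1289 rows in the table, all among the 584 rows named as known rat miRNAs. The series holds 3 libraries labelled EN and 3 labelled EC, all from PC12 cells, under a title that concerns Netrin-1, endothelial cell exosomes and repair of peripheral nerve. The labels spell out neither abbreviation, and they give no agent, dose or time, so both groups are called by their labels. Whether the replicates are separate cultures is not said in the labels, and p-values then reflect only the spread between these libraries, which may be technical.

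A miRNA is cut from a hairpin precursor, and usually 1 of its arms, 5p or 3p, is kept in the silencing complex while the other is degraded. The kept strand finds messenger RNAs mainly through its seed, the short stretch near its 5′ end. MiR-1, miR-133a, miR-133b and miR-206 are known as skeletal muscle miRNAs, with miR-206 the one most specific to skeletal muscle, and miR-1 and miR-133a are also abundant in heart. MiR-499 is made from an intron of the myosin heavy chain gene Myh7b and is known from heart and slow skeletal muscle. MiR-143 and miR-145 come from a shared cluster and mark smooth muscle and fibroblasts. MiR-122 dominates the miRNAs of hepatocytes, and miR-192 and miR-194 are typical of gut, kidney and liver epithelium. They were taken here as markers of tissues other than chromaffin cells and neurons, which does not mean that each is absent from those cells.

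The mature sequences below, from RefSeq (GRCr8), are those of the most abundant rows and of the classical muscle rows, shown with the rows that share a seed with them so that near-identical members can be compared. Capitals mark the seed, bases 2 to 8 from the 5′ end.
miR-499-5p: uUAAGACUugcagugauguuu
miR-192-5p: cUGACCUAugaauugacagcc
miR-215: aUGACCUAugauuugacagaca
miR-194-5p: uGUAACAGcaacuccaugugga
miR-122-5p: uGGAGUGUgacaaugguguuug
miR-206-3p: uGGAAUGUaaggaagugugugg
miR-1-3p: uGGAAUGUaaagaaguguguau
miR-1b: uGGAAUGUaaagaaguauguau
miR-133a-3p: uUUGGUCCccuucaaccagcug
miR-133b-3p: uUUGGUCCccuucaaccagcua
All 14 rows matched a RefSeq mature sequence, of 19 to 23 bases, and they carried 12 different seeds. MiR-206-3p, miR-1-3p and miR-1b shared the seed GGAAUGU, miR-133a-3p and miR-133b-3p shared UUGGUCC, and miR-192-5p shared UGACCUA with miR-215. With positions counted from 1 at the 5′ end, miR-133a-3p and miR-133b-3p differ only by G22A, and miR-1-3p and miR-1b only by G17A. From miR-206-3p to miR-1-3p the differences are G11A, G21A and G22U. Over the 21 bases compared, miR-192-5p and miR-215 differ by C1A, A12U and C20A. The rule by which reads matching such near-identical rows were assigned is not stated in the labels or the table header, so the split within these groups is uncertain.

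Most genes of these miRNAs lie in small clusters in the RefSeq annotation of GRCr8. Mir499a and Mir122 have no neighbouring miRNA gene within 10000 bases, apart from Mir3591, which overlaps Mir122. Mir194-2 neighbours Mir192 and Mir194-1 neighbours Mir215, so the row of miR-194-5p counts the product of 2 genes, on chromosomes 1 and 13. Mir206 neighbours Mir133b, Mir1 neighbours Mir133a1, and Mir143 neighbours Mir145. Mir499a lies within Myh7b, Mir1 and Mir133a1 lie within Mib1, and Mir143 and Mir145 lie within the long noncoding RNA gene Carmn. Mir122, Mir1 and Mir133a1 each overlap another annotated miRNA gene, Mir3591, Mir3571 and Mir3582, which are not analysed here.

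The EN libraries held 5371351, 4521694 and 4553436 miRNA counts, and the EC libraries held 6433167, 6153582 and 6554639. Levels are given as counts per 1000000 of the library's miRNA counts after TMM scaling (CPM). In 1 library, 3 counts, the limit that a count of 0 allows, correspond to 0.555 to 0.686 CPM in EN and 0.458 to 0.479 CPM in EC. These limits and the intervals of shares cover counting error only, since reads without molecular identifiers are not independent molecules. In bulk RNA of this kind, a few cells with much of a miRNA and many cells with little of it cannot be told apart.

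The tissue-restricted miRNAs were not uniformly off. Together the 14 rows took 0.0364 ± 0.00188 percent of miRNA counts in EN and 0.0385 ± 0.00302 percent in EC (SD, n = 3 each), or 367 ± 22.0 CPM in EN and 381 ± 29.0 CPM in EC. Over all libraries, miR-499-5p supplied 46.5 percent of these counts and miR-192-5p 37.8 percent. With miR-194-5p and miR-122-5p added, 4 rows held 96.0 percent. The other 10 rows, each at a mean under 10 CPM, shared the rest. Of the 14 rows, 7 had a mean under 1 CPM, as did 183 of the 584 known rows. These levels are a description, since the rows were chosen with earlier results of these data known.

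**Figure D1:**
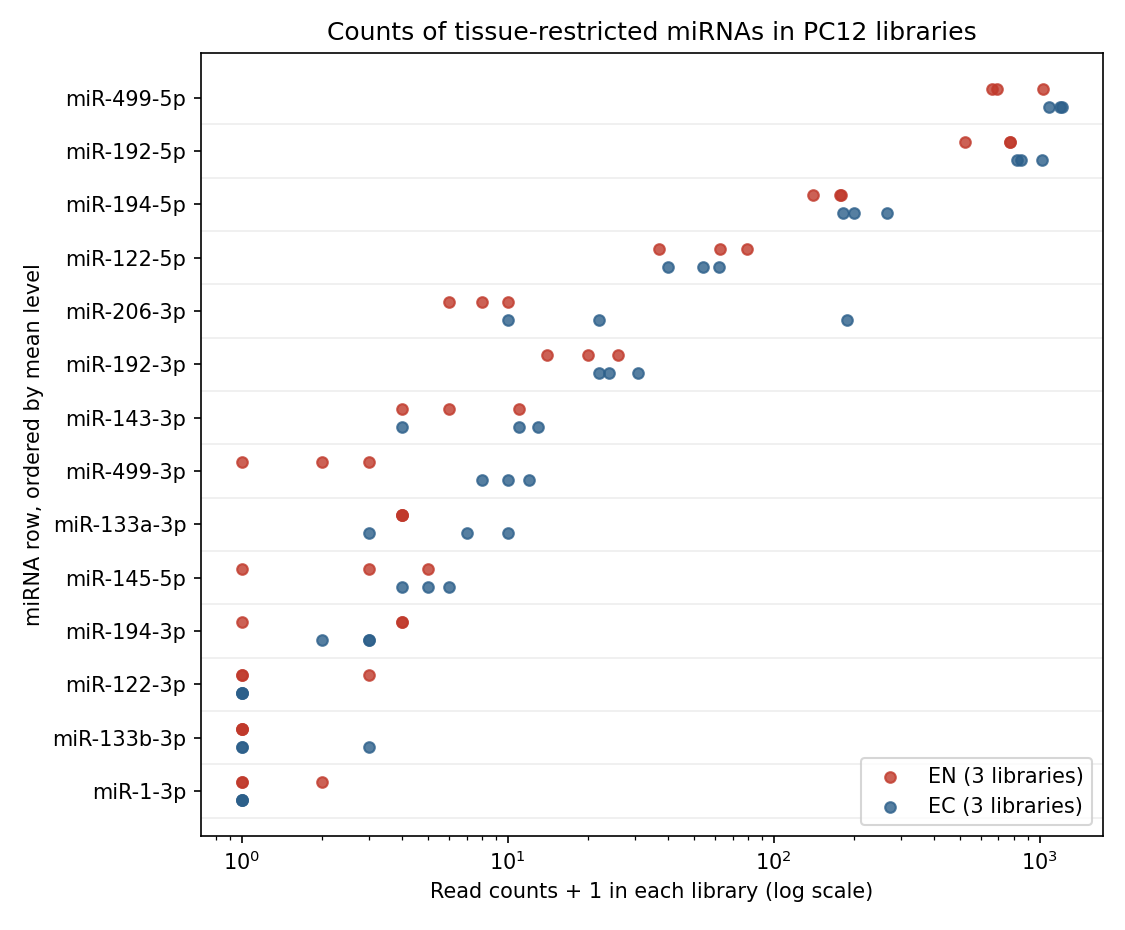
Read counts plus 1 of each tissue-restricted miRNA row (log axis) in the 3 EN libraries (red, upper line of each row) and the 3 EC libraries (blue, lower line), ordered by mean level; each point is 1 library. MiR-499-5p and miR-192-5p have at least 525 counts in every library, miR-206-3p has 1 EC library at 187 counts against 5 to 21 in the others, and miR-1-3p, miR-133b-3p and miR-122-3p are at or near 0.

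Among the heart and skeletal muscle rows of the naming rule, rno-miR-499-5p (miR-499-5p) was the most abundant in every library. It had 1029, 659 and 690 counts in the EN libraries, against 1085, 1207 and 1191 in the EC libraries. On the CPM scale these levels were 190.4, 151 and 151 in EN, against 168, 193 and 182 in EC, and the groups overlapped. In RPM, whose divisor is a larger total, they were 51.5, 36.4 and 38.6 in EN, against 55.0, 63.2 and 56.2 in EC. On that scale the median log2 fold change of all rows was -0.30, so lower values in EN were not particular to miR-499-5p. The share of all rows without overlap was not counted in RPM, and overlap of the groups is therefore described in CPM only. The mean of miR-499-5p over all 6 libraries, 172 CPM, was rank 137 of the 584 known rows, above 76.5 percent of them. Its highest library was 1.28 times its lowest, the narrowest range of any of the 14 rows for which a ratio could be formed. MiR-466c-5p, at 173 CPM, and miR-19b-3p, at 179.9 CPM, were next above it in level, and miR-211-5p and miR-3560, both at 172 CPM, were next below.

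The classical muscle miRNAs were close to the limit of detection beside it. MiR-1-3p had 1 count in EN replicate 1 and 0 in the other EN libraries, against 0 in all 3 EC libraries. MiR-133b-3p had 0 counts in all 3 EN libraries, against 2 counts in EC replicate 1 and 0 in the other EC libraries. A count of 0 over all libraries of a group allows a level of up to 0.209 CPM in EN and 0.156 CPM in EC. MiR-133a-3p had 3 counts in each EN library, against 9, 2 and 6 in the EC libraries. Of the muscle rows outside the rule, miR-1b averaged 0.419 ± 0.218 CPM in EN and 0.568 ± 0.318 CPM in EC, and miR-133c averaged 0.551 ± 0.485 CPM in EN and 0.259 ± 0.177 CPM in EC (SD, n = 3 each). MiR-208a-5p, of the heart miRNA made from a myosin gene related to Myh7b, had 1 count in all 6 libraries together. MiR-378a, which is made in muscle and in other tissues and was placed on a list of related muscle miRNAs, stood higher. MiR-378a-3p averaged 5734 ± 4525 CPM in EN and 3058 ± 2632 CPM in EC, and miR-378a-5p averaged 226 ± 313 CPM in EN and 386 ± 341 CPM in EC (SD, n = 3 each). Its gene overlaps another annotated miRNA gene, so the assignment of reads to these rows is uncertain.

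MiR-206-3p departed from this pattern in 1 library. It had 9, 7 and 5 counts in the EN libraries, against 187, 9 and 21 in the EC libraries, so that EC replicate 1 alone held 78.6 percent of its counts. On the CPM scale EC replicate 1 stood at 28.9, which was 9.01 times the highest of the other 5 libraries, and those lay between 1.10 and 3.21 CPM. MiR-133b-3p, from the neighbouring gene, had 2 counts in the same library and 0 in the other 5. Also in EC replicate 1, miR-133a-3p was at 9 counts, its highest value, while miR-1-3p was at 0 and miR-499-5p, at 168 CPM, was the lowest of the 3 EC values. The mean of miR-206-3p was 1.45 ± 0.312 CPM in EN and 11.2 ± 15.4 CPM in EC (SD, n = 3 each), or 2.32 CPM in EC without replicate 1. The row did not pass the filter on low counts. Where all rows were tested without that filter, edgeR gave a log2 fold change of -2.97 (SE 1.44) with a p of 0.514 after Benjamini-Hochberg adjustment, in a fit that called 3.41 percent of 1289 rows and 0 of the 14. DESeq2 gave -2.99 (SE 0.888) with an adjusted p of 0.00809, where it called 14.7 percent of the 556 rows with an adjusted p. Without EC replicate 1, a fit chosen after seeing the data, DESeq2 gave -0.68 (SE 0.749), an unadjusted p of 0.366 and no adjusted p, so that its call rested on that library.

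Among the gut and kidney miRNAs, rno-miR-192-5p (miR-192-5p) was nearly as abundant as miR-499-5p. It had 525, 774 and 772 counts in the EN libraries, against 1023, 849 and 824 in the EC libraries. On the CPM scale these levels were 97.1, 177 and 169 in EN, against 158, 136 and 126 in EC. EN replicate 1 was the lowest and the other EN libraries the highest of all 6, so the groups overlapped. Its mean of 144 CPM was rank 149 of the 584 known rows. MiR-499-5p was above miR-192-5p in 4 of 6 libraries and their ranges overlapped, so the order of the leading pair was not fixed beyond their spread.

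MiR-194-5p, which the gene beside Mir192 and the gene beside Mir215 can both supply, followed at a lower level. It had 178, 140 and 176 counts in the EN libraries, against 265, 181 and 200 in the EC libraries. On the CPM scale these levels were 32.9, 32.0 and 38.5 in EN, against 40.9, 28.9 and 30.5 in EC, again with overlap. The count of miR-192-5p was 2.95, 5.53 and 4.39 times that of miR-194-5p in the EN libraries, against 3.86, 4.69 and 4.12 times in the EC libraries. The mean ratio was 4.29 ± 1.29 in EN and 4.22 ± 0.425 in EC (SD, n = 3 each), and an exact permutation test of the difference, two-sided, gave p = 1.0, where 3 against 3 libraries cannot go below 0.1. MiR-215, which has the seed of miR-192-5p and whose gene neighbours the other miR-194 gene, had 2, 6 and 2 counts in the EN libraries, against 14, 6 and 14 in the EC libraries. MiR-192-5p therefore outnumbered the other carrier of its seed at least 58.9-fold in every library.

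The liver and smooth muscle miRNAs were scarce. The liver row rno-miR-122-5p (miR-122-5p) had 78, 36 and 62 counts in the EN libraries, against 53, 61 and 39 in the EC libraries. On the CPM scale these levels were 14.4, 8.23 and 13.6 in EN, against 8.18, 9.74 and 5.95 in EC. The highest pair of values was in EN, but EN replicate 2 lay within the EC range. Its mean was 12.1 ± 3.36 CPM in EN and 7.96 ± 1.90 CPM in EC (SD, n = 3 each). MiR-143-3p had 3, 10 and 5 counts in the EN libraries, against 12, 3 and 10 in the EC libraries, and miR-145-5p had 2, 0 and 4 in EN, against 5, 4 and 3 in EC. Neither smooth muscle row separated the groups.

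**Figure D2:**
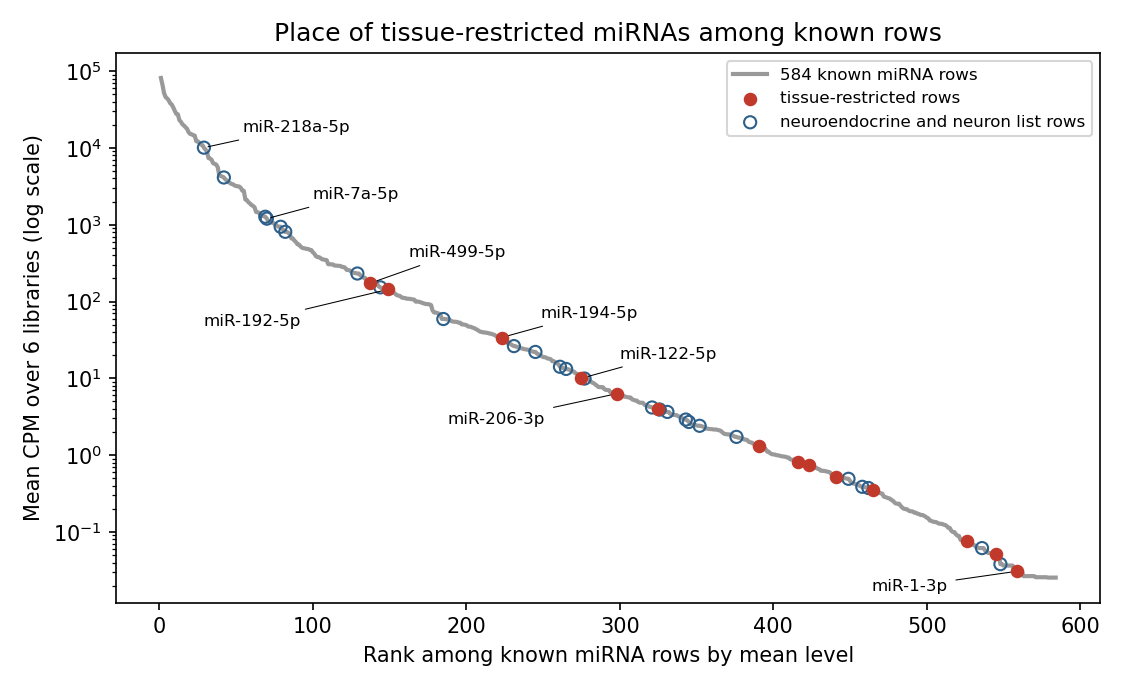
Mean CPM over the 6 libraries (log axis) of the 584 known miRNA rows against their rank, with the tissue-restricted rows as filled red points and rows of the neuroendocrine and neuron lists as open blue circles. MiR-499-5p and miR-192-5p lie at ranks 137 and 149, below miR-218a-5p and miR-7a-5p, while most other tissue-restricted rows lie in the lower part of the curve.

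The order of levels over the 14 rows was miR-499-5p, miR-192-5p, miR-194-5p, miR-122-5p, miR-206-3p, miR-192-3p, miR-143-3p, miR-499-3p, miR-133a-3p, miR-145-5p, miR-194-3p, miR-122-3p, miR-133b-3p and miR-1-3p. The ranges over 6 libraries of neighbours in this order were separate at 3 steps, from miR-192-5p to miR-194-5p, from miR-194-5p to miR-122-5p, and from miR-192-3p to miR-143-3p. At every other step the ranges overlapped. MiR-206-3p owed its place to EC replicate 1, and it was above miR-192-3p, the next in order, in 1 of 6 libraries.

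The identity of the cells was described with lists of miRNAs typical of other cell types. Of the neuroendocrine and chromaffin list, 7 rows were present, with a summed level of 1256 to 1512 CPM in EN and 995 to 1159 CPM in EC. MiR-7a-5p, which is enriched in endocrine and neuroendocrine cells, made up most of it at 1343 ± 131 CPM in EN and 1055 ± 80.2 CPM in EC (SD, n = 3 each), while miR-375-3p, another endocrine miRNA, was at 2.75 ± 0.464 CPM in EN and 2.65 ± 0.614 CPM in EC. Of the neuron list, 19 rows summed to 16728 to 20136 CPM in EN and 16219 to 17716 CPM in EC, led by miR-218a-5p, typical of motor neurons, and miR-129-5p. The neuron-specific miR-124-3p was at 0.565 ± 0.465 CPM in EN and 0.419 ± 0.337 CPM in EC. MiR-218a-5p averaged 58.4 times the level of miR-499-5p and 70.1 times that of miR-192-5p over all libraries, and miR-7a-5p averaged 6.96 and 8.34 times the levels of these rows. In their means over all libraries, miR-499-5p and miR-192-5p were thus above miR-375-3p and miR-124-3p. They were above every row of the neuroendocrine list except miR-7a-5p, the next being miR-182 at 13.3 CPM. In the neuron list they were below miR-218a-5p, miR-129-5p, miR-9a-5p (1268 CPM), miR-128-3p (940.2 CPM), miR-129-2-3p (808 CPM) and miR-138-5p (232 CPM). MiR-9a-3p, at 153 CPM, lay between them, and the remaining rows of that list were lower.

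Lists of other cell types gave further values beside which the tissue-restricted rows stand. The blood cell list, of 9 rows, summed to 1128 to 1153 CPM in EN and 1108 to 1481 CPM in EC, most of it miR-155-5p, while miR-451-5p, an erythroid miRNA, was at 23.3 ± 6.26 CPM in EN and 8.10 ± 2.60 CPM in EC (SD, n = 3 each). MiR-144-3p, also typical of red cell precursors, had a mean of 0.0617 CPM over all libraries. The endothelial miR-126a-3p was at 1102 ± 84.4 CPM in EN and 1048 ± 37.0 CPM in EC (SD, n = 3 each). The smooth muscle and fibroblast list, of 6 rows, summed to 214 to 222 CPM in EN and 164 to 186 CPM in EC, most of it miR-199a-3p. Any part that other cells or their RNA had in the tissue-restricted counts was not tested. In EC replicate 1, the library with the high miR-206-3p value, these sums were 1181, 1143 and 186 CPM for the blood cell, endothelial and smooth muscle and fibroblast lists.

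The comparison of EN with EC asks whether these markers differ between both groups of PC12 cells. None of the rows that could be tested passed. Of the 14 rows, 5 passed the filter on low counts, namely miR-499-5p, miR-192-5p, miR-192-3p, miR-194-5p and miR-122-5p. By the quasi-likelihood test of edgeR, with p-values adjusted by Benjamini-Hochberg over all 628 rows tested and a threshold of 0.05, 0 of the 5 were called, where 25 of all rows, or 3.98 percent, were called. At an unadjusted p under 0.05, 0 of the 5 passed, as against 136 of the 628, and DESeq2 and limma-voom also called 0 of the 5. Of the 5, 4 had a positive and 1 a negative log2 fold change, with a median of 0.060, where the median of all rows tested was 0.020.

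MiR-499-5p averaged 164 ± 22.8 CPM in EN and 181 ± 12.6 CPM in EC (SD, n = 3 each), a log2 fold change of -0.14 (SE 0.151, adjusted p = 0.653 by edgeR). Its 95 percent interval, from -0.49 to 0.22, corresponds to a level in EN between 0.710 and 1.16 times that in EC. MiR-192-5p averaged 148 ± 44.0 CPM in EN and 139.8 ± 16.5 CPM in EC, a log2 fold change of 0.080 (SE 0.244, adjusted p = 0.869 by edgeR), with an interval from -0.50 to 0.65. MiR-194-5p had a log2 fold change of 0.044 (SE 0.183), with an interval from -0.39 to 0.47. MiR-122-5p had the largest difference of the 5, a log2 fold change of 0.60 (SE 0.297, adjusted p = 0.293 by edgeR), and its interval from -0.097 to 1.30 spans no change and a 2.47-fold higher level in EN. These intervals leave room for moderate differences in either direction, so the rows are not shown to be equal. With library totals implied by the deposited RPM in place of miRNA counts, the median of all rows was -0.30. MiR-499-5p was then at -0.46 and miR-122-5p at 0.28, while miR-192-5p, miR-194-5p and miR-192-3p had negative values of -0.27, -0.29 and -0.28. None of the 5 passed, where 16.3 percent of all rows did.

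**Figure D3:**
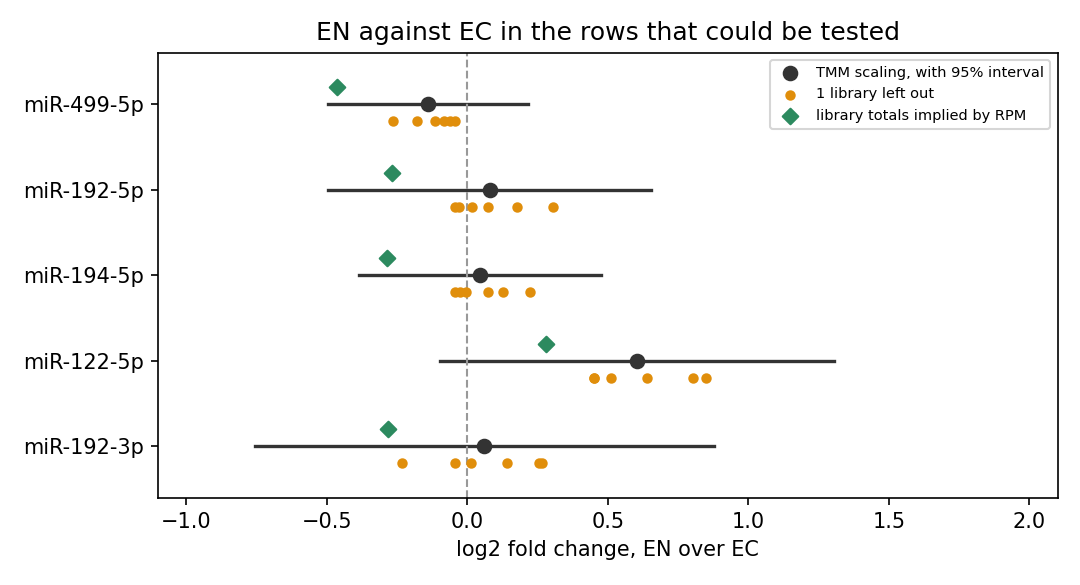
Log2 fold change of EN over EC for the 5 tested rows, with the value under TMM scaling and its 95 percent interval (black), the 6 values with 1 library left out (orange) and the value with library totals implied by RPM (green diamond). Each interval includes 0, and miR-122-5p is the row with the largest value, at 0.60.

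The arms of these miRNAs were counted separately, and in miR-499, miR-192, miR-194 and miR-122 the 5p arm was the abundant one. The hairpin of miR-499 from RefSeq (GRCr8, chromosome 3), with the 5p arm and then the 3p arm in capitals, shows both products that the rows count.
Mir499a: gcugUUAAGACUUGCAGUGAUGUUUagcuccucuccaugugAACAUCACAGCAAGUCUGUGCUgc
MiR-499-3p had 0, 1 and 2 counts in the EN libraries, against 7, 9 and 11 in the EC libraries. Every EN value lay below every EC value, and on the CPM scale miR-499-3p was the 1 row of the 14 whose groups did not overlap. On that scale 19.4 percent of all 1289 rows did not overlap, and 9.23 percent were lower in EN in this way. As a share of both arms, miR-499-3p took 0 percent (0 of 1029 counts, which allows up to 0.292 percent), 0.152 percent and 0.289 percent in EN, against 0.641, 0.740 and 0.915 percent in EC. The mean share was 0.147 ± 0.145 percent in EN and 0.765 ± 0.139 percent in EC (SD, n = 3 each), and an exact permutation test, two-sided, gave p = 0.1, the smallest that this design can give. This share was singled out after its values were seen. The 95 percent exact binomial intervals of EN replicates 2 and 3, from 0.00384 to 0.841 and from 0.0350 to 1.04 percent, overlapped those of all EC libraries. By the same method, the interval of EN replicate 1, from 0 to 0.358 percent, lay below that of EC replicate 3, from 0.458 to 1.63 percent. It overlapped the intervals of EC replicates 1 and 2, which began at 0.258 and 0.339 percent. The 3-count limit of 0.292 percent for EN replicate 1 lay below the intervals of EC replicates 2 and 3. It is shorter than the exact interval, so it does not show a separation from EC replicate 2. The row did not pass the filter on low counts. Where all rows were tested, it had a log2 fold change of -2.63 (SE 0.858) with an adjusted p of 0.10 by edgeR, and DESeq2 gave -2.73 (SE 1.24) with no adjusted p.

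**Figure D4:**
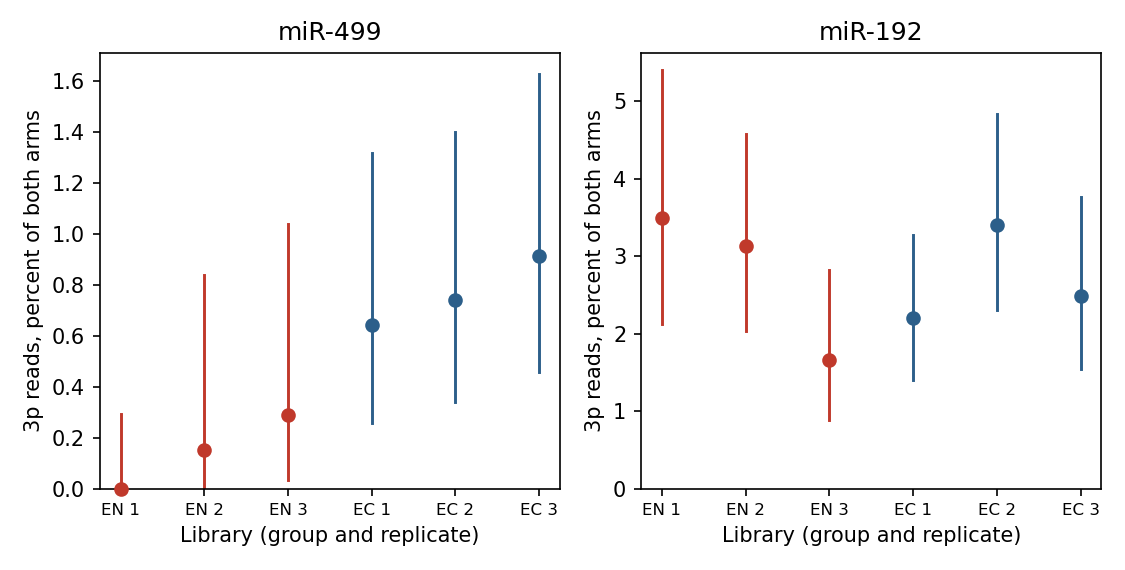
Share of 3p reads in all reads of both arms, in percent, for miR-499 (left) and miR-192 (right) in each EN library (red) and EC library (blue); lines are 95 percent exact binomial intervals, or for a count of 0 the range up to 3 counts. For miR-499 the EN shares of 0 to 0.289 percent lie below the EC shares of 0.641 to 0.915 percent, while for miR-192 the groups overlap. The line of miR-499 in EN replicate 1, drawn to 0.292 percent, is shorter than its exact interval. That interval reaches 0.358 percent and overlaps those of EC replicates 1 and 2.

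For miR-192 the arm shares of the groups overlapped, which does not show them to be equal. MiR-192-3p had 19, 25 and 13 counts in the EN libraries, against 23, 30 and 21 in the EC libraries. Its share of both arms was 2.76 ± 0.973 percent in EN and 2.70 ± 0.635 percent in EC (SD, n = 3 each), and an exact permutation test, two-sided, gave p = 0.9. It was the only one of these miRNAs with enough counts in both arms for limma's test of the log2 ratio of 5p to 3p, which gave a difference of -0.0065 (SE 0.338, adjusted p = 0.994), where 6 of 107 miRNAs, or 5.61 percent, were called. MiR-194-3p had 0, 3 and 3 counts in EN, against 2, 1 and 2 in EC, and miR-122-3p had 0, 2 and 0 in EN, against 0 in all 3 EC libraries.

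Among the 274 other known rows with a mean of 10 CPM or more, the rows whose log2 level followed miR-499-5p most closely over the 6 libraries were miR-582-5p, miR-190b-5p and let-7g-5p, with Pearson r of 0.997, 0.994 and 0.990. A value of 0.9 or more was reached by 9 rows. MiR-122-5p was followed most closely by miR-449a-5p, miR-221-3p and miR-19b-3p, with r of 0.985, 0.924 and 0.903. For miR-192-5p these were miR-27a-5p, miR-218a-1-3p and miR-501-3p, with r of 0.923, 0.866 and 0.853, and for miR-194-5p they were miR-3075, miR-93-5p and miR-199a-5p, with r of 0.848, 0.807 and 0.786. MiR-192-3p, compared with 275 such rows, was closest to let-7a-1-3p, miR-146a-3p and miR-351-3p, with r of 0.876, 0.839 and 0.826. These values are descriptions over 6 libraries that share their scaling, and no test was made of them.

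Of related tissue lists, none of the tested rows passed the adjusted threshold in edgeR in either direction. The related muscle list had 6 rows with 2 tested, both arms of miR-378a, and summed to 1121 to 8820 CPM in EN and 697 to 4905 CPM in EC. Within each group miR-378a-3p differed widely between libraries, from 533 to 8773 CPM in EN and from 43.3 to 4902 CPM in EC. The related smooth muscle list, of miR-23b and miR-27b, had 4 rows, all tested, led by miR-23b-3p. It summed to 23928 to 30193 CPM in EN and 30073 to 32554 CPM in EC. Neither miRNA is in the naming rule or was used as a smooth muscle marker. Their sum is therefore not a level of smooth muscle miRNAs. The related gut and kidney list, mainly the epithelial miR-200 family, had 10 rows with 5 tested and a summed level of 31.8 to 40.3 CPM in EN and 27.2 to 33.7 CPM in EC. The liver-enriched miR-148a-3p was at 0.0617 CPM in EN and 0 in EC and was not tested. By comparison, miR-128-3p was the 1 row of the neuron list to rise, of 14 tested, and none of 6 neuroendocrine rows was called. The blood cell list had 1 rise among 4 tested rows, miR-451-5p, and the endothelial list 1 fall among 2, miR-126a-5p. Each had an adjusted p of 0.0471 by edgeR. The other arm of the endothelial miRNA, miR-126a-3p, had a mean of 1075 CPM against 46.7 CPM for miR-126a-5p. It was not called, with a log2 fold change of 0.0722 (adjusted p = 0.731 by edgeR). These calls stand beside the 3.98 percent called of all rows, and the calls over all rows fell to 3 without EN replicate 2, 2 without EN replicate 3, 10 without EC replicate 1 and 8 without EC replicate 3.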

How the data were processed

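Small RNA of PC12 cells was sequenced from total RNA, per the labels' protocols. The authors deposited 1 table with whole-number read counts per miRNA row. It also holds the authors' RPM, the count scaled to 1000000 reads of a larger total. HISAT2 2.0.5 and Rnor 6.0 are named in the submitters' processing notes, and which program counted, on what annotation and by what strand rule is not given in the sources. Counts were tested with edgeR 4.0.16 in R 4.3.3, using filterByExpr, TMM factors and the robust quasi-likelihood test over all 628 rows kept, with Benjamini-Hochberg adjustment. The SE is |log2 fold change|/√F. Arm ratios, log2((5p + 1)/(3p + 1)), were tested with limma 3.58.1 where both arms averaged 20 counts or more. Single values were compared by exact permutation. Alternatives included DESeq2 1.42.0 and limma-voom. The test scripts were first checked on simulated counts with known changes, and all values given come from the deposited counts. All rows of the naming rule are named, with their seed mates and, for the tested rows, the rows of closest pattern. Neighbours in level are given for miR-499-5p only. The members and lists were chosen with earlier results of these data known. Names and neighbours come from RefSeq (GRCr8), whose build differs, so no coordinates are given.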

Additional observations from a re-analysis of the deposited data

How the results depend on the processing

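None of the 5 tested rows passed under any alternative, 84 values in all, with a lowest adjusted p of 0.112, for miR-499-5p with library totals implied by RPM. The value of miR-499-5p stayed negative and that of miR-122-5p positive in all of theirs. With those totals, miR-192-5p became -0.27, miR-194-5p -0.29 and miR-192-3p -0.28. The summed level of the 14 rows was 93.8 RPM in EN and 123 RPM in EC, a change that comes with the divisor. The miRNA counts were 26.87, 24.99 and 25.49 percent of those totals in EN, against 32.63, 32.21 and 30.91 percent in EC, so the divisor itself differed between the groups. Without 1 library, the log2 fold change ranged from -0.0423 to 0.303 for miR-192-5p, from -0.0422 to 0.223 for miR-194-5p and from -0.233 to 0.267 for miR-192-3p. The summed level ranged from 361 to 379.7 CPM in EN and from 366 to 394 CPM in EC. The arm ratio of miR-192 ranged from -0.333 to 0.202 and was 0.0033 with a pseudocount of 0.5. Among all rows, the 25 calls became 101 with library totals implied by RPM, 44 without a filter and 82 with DESeq2. They ranged from 2 to 39 without 1 library, being 10, 39 and 8 without EC replicate 1, 2 or 3, and 34, 3 and 2 without EN replicate 1, 2 or 3. Arm use calls ranged from 1 to 13. Beyond the divisor, the cause was not tested. A fit with a replicate block by library number made 2 calls over all rows, 0 of them among the 5, and 0 for arm use. The deviations of libraries with the same number had correlations of 0.0765, -0.0524 and 0.00701, and 1 of 6 libraries correlated best with its own number, so the numbers were not used as pairs. No row of a miRNA gene that overlaps a gene of the 14 rows entered the sums of overlapping rows, so that alternative gave no other level. Depth limits miR-1-3p, miR-133b-3p and miR-122-3p, with at most 2 counts in any library.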

Other observations

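Among the 584 known rows, miR-206-3p was the 1 row with a library at 20 counts or more that exceeded every other library at least 5-fold, a search made after the values of miR-206-3p were seen. That library was EC replicate 1, and no known row met this in the other 5 libraries. The cause of this single value was not tested.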
